A study of Mus musculus with 6 samples.

Results

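Eph receptors and ephrins, semaphorins and plexins, Slit and Robo, netrins and Unc5, and the FGFs with their receptors were examined for changes of DNA methylation in Tet1 knockout blood progenitors. These genes were taken by name, as those nearest to a listed cytosine whose symbol begins with one of the family prefixes followed by a digit, and Unc5a to Unc5d were included because Unc5 ends in its own digit. They were 33 genes with 60 cytosines, of 3344 genes with 6756 cytosines in the authors' deposited tables. LSK cells, the lineage-negative, Sca-1-positive, Kit-positive fraction of bone marrow that holds the haematopoietic stem and progenitor cells, were sorted from 3 Tet1 KO and 3 WT samples of mice aged 6 months, of a strain labelled CD57BL/6. Methylation was measured with enhanced reduced representation bisulfite sequencing, an assay of mostly CpG-rich DNA that does not separate 5-methylcytosine from 5-hydroxymethylcytosine. Whether the Tet1 KO allele acts in all tissues, and whether samples were separate mice or pools, is not stated in the labels.

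The authors' deposited tables hold 1 value per cytosine, the methylation difference of Tet1 KO minus WT in percentage points, for cytosines that differed by at least 25 percentage points. The direction comes from the names and signs of the lists, with hypermethylated meaning higher in Tet1 KO. Values per sample, coverage and p-values were not used here. The replicate spread and depth behind each difference are therefore unknown, and no difference below could be tested. The LSK identity and the loss of Tet1 could not be checked either, since the lists hold no expression values and no listed cytosine was nearest to Tet1 (0 sites). A gene name means the nearest transcription start and does not show that the gene is regulated from that site.

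Axon guidance molecules steer growing axons and are used by many other tissues. Ephrins are membrane-bound ligands of the Eph receptor tyrosine kinases, so that both partners signal at cell contacts. Semaphorins act on plexins, often with neuropilins as co-receptors. Slit proteins repel cells through Robo receptors, and netrins act through Dcc and Unc5 receptors. FGFs are growth factors and hormones that bind FGF receptor tyrosine kinases, except for an intracellular subgroup that binds sodium channels. In bone marrow, Robo4 and several Eph receptors and ephrins have been linked to the retention and movement of blood progenitors.

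Most of these cytosines were more methylated in Tet1 KO. Of the 60 cytosines, 55 were hypermethylated and 5 hypomethylated in the authors' deposited tables, a hypermethylated share of 91.7% (95% interval 81.6 to 97.2%, by the exact Clopper-Pearson method, for counting error alone). The share over all listed cytosines was 92.8%, inside that interval. Genes with hypermethylated cytosines alone were 28 of 33 (84.8%), beside 87.0% of all listed genes. Each of the 5 hypomethylated cytosines was the only listed cytosine of its gene, so those genes could not hold both directions. The 55 gains had a median of 40.2 percentage points (range 25.6 to 66.8), and the gains of all other genes had a median of 41.1 percentage points (range 25.0 to 97.6) in the authors' deposited table. The quartiles of the 55 gains were 33.4 and 50.7 percentage points.

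**Figure D1:**
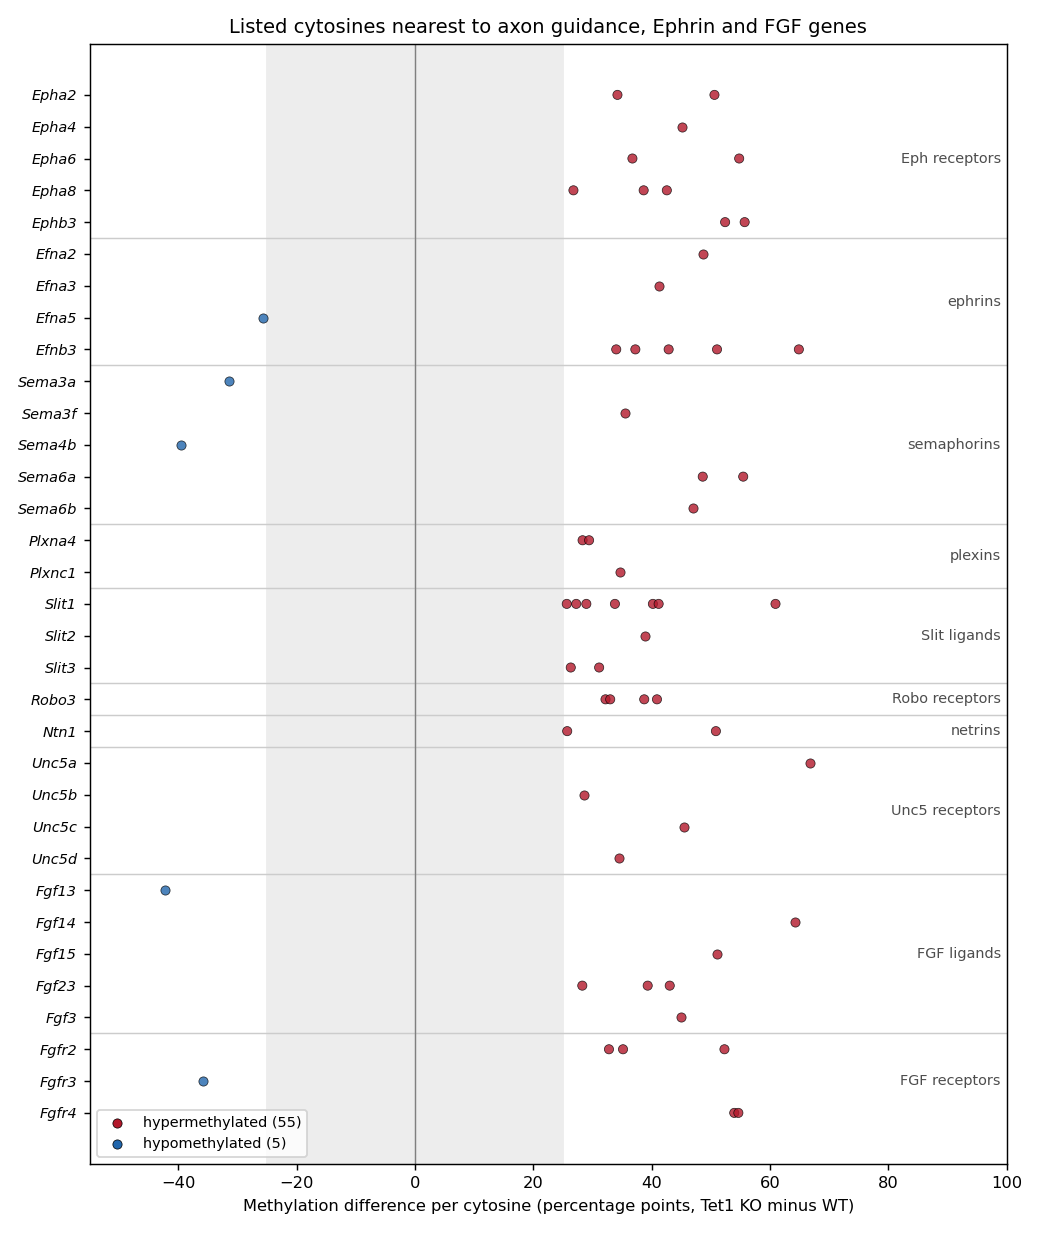
Methylation difference (percentage points, Tet1 KO minus WT) of each listed cytosine, with 1 row per nearest gene and the genes grouped by family. Each point is 1 cytosine of the authors' deposited tables, the grey band is the unlisted range below 25 percentage points in size, and the 5 hypomethylated cytosines belong to 5 different genes.

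Of the 94 protein-coding genes of these 11 families in the RefSeq annotation of GRCm38.p6, 33 were nearest to a listed cytosine (35.1%, exact interval 25.5 to 45.6%). Over all protein-coding genes the share was 13.7%. Listed family genes were long, with a median length of 68988 bp, beside 27886 bp for the unlisted family genes and 27225 bp for all listed coding genes. Among genes of 100000 bp or more, 16 of 35 family genes (45.7%, exact interval 28.8 to 63.4%) and 24.3% of other coding genes were listed. Among genes under 20000 bp, 11 of 35 family genes (31.4%, 16.9 to 49.3%) and 10.4% of other coding genes were listed. Between those lengths the shares were 25.0% for family genes (6 of 24) and 15.1% for others, and that interval for the family genes (9.77 to 46.7%) holds the value of the others. How many cytosines were read at each gene is unknown, and its part in these shares was not tested. The families were chosen with earlier results of these data known. These shares and intervals are therefore descriptive, and neither enrichment nor the part of gene length was tested.

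All 3 Slit ligands and all 4 Unc5 receptors were nearest to a listed cytosine, as were 3 of 4 FGF receptors and 4 of 8 ephrins. Listed were 5 of 14 Eph receptors, 5 of 20 semaphorins, 5 of 22 FGF ligands, 2 of 9 plexins, 1 of 4 Robo receptors and 1 of 4 netrins. Neither of the 2 neuropilin genes, the co-receptors of secreted semaphorins, was listed (0 of 2). Beside these counts, 13.7% of all protein-coding genes were listed. Differences between families of 2 to 22 genes were not tested.

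**Figure D2:**
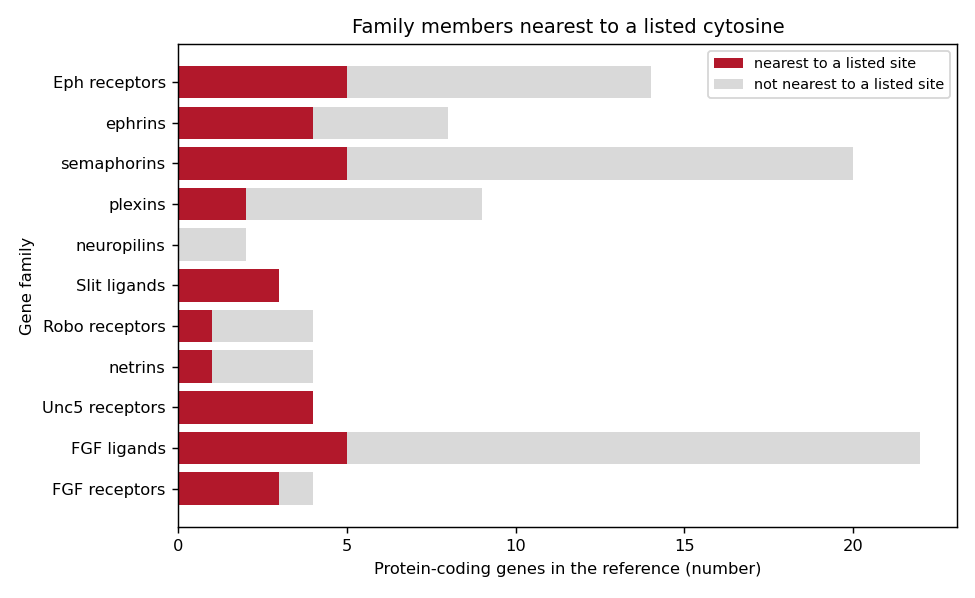
Number of protein-coding genes of each family in the reference (x axis), split into those nearest to at least 1 listed cytosine and those nearest to none. The Slit bar (3 of 3) and the Unc5 bar (4 of 4) are filled, and the neuropilin bar has no listed gene.

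The promoters with a listed cytosine were those of Ephb3, Slit1, Sema4b and Fgf13. Reference windows of 250 bp before to 50 bp after the start are printed for Sema4b, because the distance of its listed cytosine falls inside the window, and for Ephb3, because it had more promoter gains than the other genes of these families. Both sequences are from RefSeq (GRCm38.p6, forward strand), at chr7:80186620-80186919 and chr16:21204545-21204844. In Sema4b the capitals mark the CpG that stands 89 bp upstream of the start, the distance of the listed cytosine, and in Ephb3 they mark every CpG.
Sema4b: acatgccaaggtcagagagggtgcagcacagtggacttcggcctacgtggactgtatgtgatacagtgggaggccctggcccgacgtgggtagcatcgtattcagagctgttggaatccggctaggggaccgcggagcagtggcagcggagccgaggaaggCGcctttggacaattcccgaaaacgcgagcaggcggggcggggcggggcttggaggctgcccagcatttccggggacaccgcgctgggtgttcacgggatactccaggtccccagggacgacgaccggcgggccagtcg
Ephb3: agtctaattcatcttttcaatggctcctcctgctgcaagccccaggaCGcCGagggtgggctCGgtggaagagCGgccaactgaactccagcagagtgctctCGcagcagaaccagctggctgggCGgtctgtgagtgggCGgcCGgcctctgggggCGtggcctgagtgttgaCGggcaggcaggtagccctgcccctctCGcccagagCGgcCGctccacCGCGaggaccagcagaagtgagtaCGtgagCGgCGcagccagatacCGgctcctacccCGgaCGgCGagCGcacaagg
The Sema4b window was chosen as the one of 2 RefSeq windows of that gene with a CpG at this distance, and the match by distance across builds does not show that this CpG is the listed cytosine. Over all genes with a single window, 87 of 120 listed cytosines (72.5%) fell on a CpG at the distance given in the files, against at most 10.8% with shifts of 1 to 3 bp either way. The search for the letters CG, which read the same on both strands, found 26 in the Sema4b window and 23 in the Ephb3 window. The median over all 32851 promoter windows was 7, and 16.9% and 21.5% of windows held at least as many as Sema4b and Ephb3 did. The assay reads mostly CpG-rich DNA, and windows of listed genes alone were not compared. At least 1 CG was found in 94.6% of all windows. The listed Ephb3 cytosines lay farther upstream, outside the printed window.

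Among the receptors of ephrins, 5 Eph genes had 10 cytosines, all hypermethylated, with a median of 43.8 percentage points. Ephb3, a receptor of B-type ephrins that positions cells in the gut epithelium, had both its cytosines in the promoter, at 55.7 and 52.4 percentage points, by the authors' deposited table. They lay 708 and 688 bp upstream of the start on the same strand (chromosome 16, 21204160 to 21204180, mm9). Epha6 had 2 cytosines in exon 1 of 18, 587 and 580 bp from its start (chromosome 16, 60604770 to 60604777), with listed differences of 36.7 and 54.8 percentage points. Although only 7 bp apart, the Epha6 cytosines thus differed by 18.0 percentage points. Epha8, a receptor of A-type ephrins, had 3 cytosines. Of these, 2 were in intron 1 of 16, 545 and 319 bp from the start, at 26.8 and 38.6 percentage points, and the third, at the gene's end, was listed at 42.5 percentage points. Epha2, an epithelial receptor of A-type ephrins, gained 34.2 percentage points in intron 3 and 50.6 percentage points in intron 10 of 16 in the authors' deposited table. Epha4, a receptor of motor axons, had 1 intergenic cytosine at 45.0 percentage points, 310140 bp from its start.

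The ephrin ligands held 8 cytosines near 4 genes. Efnb3, a transmembrane ephrin that forms a midline barrier in the spinal cord, had 5 of them, all hypermethylated and all within the gene at chromosome 11, 69369744 to 69371276 (mm9). In the authors' deposited table the cytosine in exon 5 of 5 gained 37.2 percentage points, and those in exon 2 gained 34.0, 42.9 and 64.9. The fifth Efnb3 cytosine, in intron 1 of 4, was listed at 51.0 percentage points. The mean over the 5 was 46.0 ± 12.4 percentage points (SD over cytosines, not over samples). The highest and the second highest exon 2 values stood 3 bp apart and differed by 22.0 percentage points. Efna2 and Efna3, both anchored to the membrane by a lipid, had 1 gain each, of 48.7 percentage points at the gene's end and 41.2 percentage points in intron 2 of 4. Efna5, which guides the map of the retina onto the midbrain, was nearest to a loss of -25.7 percentage points, by the authors' deposited table. That cytosine lay 183346 bp upstream, in a SINE repeat inside intron 8 of 8 of Fbxl17, so a neighbour of Efna5 contains it.

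The semaphorins, ligands of plexins, held both directions, with 4 gains and 2 losses near 5 genes. Sema6a and Sema6b, transmembrane semaphorins that bind A-type plexins, had their gains shortly upstream of the start. Sema6a gained 55.5 and 48.6 percentage points at 2568 and 2766 bp upstream, on opposite strands, and Sema6b gained 47.0 percentage points at 1265 bp upstream in the authors' deposited table. Sema3f, a secreted repellent that acts through neuropilin 2, gained 35.5 percentage points 24558 bp upstream. Sema4b, a transmembrane semaphorin, was listed with a promoter loss of -39.5 percentage points, 89 bp upstream of its start (chromosome 7, 87331638, mm9). Sema3a, a secreted repellent that acts through neuropilin 1, was nearest to a loss of -31.5 percentage points in a LINE repeat 338980 bp upstream in the authors' deposited table.

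Plxna4, a receptor subunit for secreted and transmembrane semaphorins, had 2 cytosines 36 bp apart in intron 1 of 31, at 28.3 and 29.4 percentage points, by the authors' deposited table. They lay 1150 and 1114 bp from the start. Plxnc1, the receptor of Sema7a, had 1 intergenic gain of 34.6 percentage points, 47446 bp upstream. With a median of 29.4 percentage points, the 3 plexin cytosines were below the median of 40.2 percentage points over all 55 gains.

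Slit1, a secreted repellent of the brain and spinal cord, had 7 hypermethylated cytosines, more than the other 32 genes of these families. They spanned 67546 bp of chromosome 19 (41751310 to 41818856, mm9). Around the start, the authors' deposited table lists a gain of 41.2 percentage points in the promoter 510 bp upstream. Downstream of the start followed 25.6 and 28.9 percentage points in exon 1, 312 and 330 bp away, and 33.8 percentage points in a CpG island of intron 1, 731 bp away. Farther in, the gains were 40.2 percentage points in intron 1 at 5328 bp, 60.9 in intron 4 at 64395 bp and 27.2 in intron 4 at 67036 bp. Higher and lower Slit1 values were found both near the start and deep in the gene. The 2 exon 1 cytosines, 18 bp apart, differed by 3.31 percentage points. Of all 3344 listed genes, 123 (3.68%) had at least 7 cytosines. Slit3 had 2 gains in intron 4 of 35, of 31.1 and 26.3 percentage points, the first of them in an LTR repeat. Slit2, the ligand best known for repelling commissural axons, had 1 gain of 38.9 percentage points in a LINE repeat 848026 bp upstream in the authors' deposited table.

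The Robo receptors held 4 cytosines, all near Robo3, and Robo1, Robo2 and Robo4 were not listed. Robo3, which lets commissural axons cross the midline, had 4 gains of 32.2 to 40.9 percentage points inside the gene (chromosome 9, 37226454 to 37237028, mm9). In the authors' deposited table, 38.7 percentage points was in exon 22 of 28, 32.2 in exon 3, and 33.0 and 40.9 in intron 2. Ntn1, the founding netrin, had 2 gains, of 25.7 percentage points in intron 2 of 6 and 50.8 percentage points 12220 bp upstream. The 4 Unc5 genes, receptors through which netrin repels, had 1 gain each. Unc5a had 66.8 percentage points at 61542 bp upstream, the highest value of the 60 cytosines in the authors' deposited tables. Unc5c gained 45.5 percentage points in intron 1 of 15, 851 bp from its start. Unc5d gained 34.5 percentage points in intron 8 of 17, and Unc5b, the receptor of blood vessels, 28.6 percentage points at 7525 bp upstream.

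The FGF ligands had 6 gains and 1 loss near 5 genes. Fgf14 and Fgf13 belong to the intracellular subgroup that binds sodium channels, and they were listed in opposite directions. Fgf14 gained 64.2 percentage points in intron 1 of 4, 675 bp from its start. Fgf13, on chromosome X, lost methylation in its promoter 368 bp upstream (56387981, mm9), at -42.3 percentage points. This was the largest loss of the 5 in the authors' deposited table. The sex of the samples is not given here, and its part in this value was not tested. Fgf23, the bone hormone of phosphate balance, had 3 gains. Its 2 cytosines in intron 2 of 2 were listed at 43.0 and 39.3 percentage points, the first in a SINE repeat, and the third, at 28.3 percentage points, lay at the end of the neighbouring gene Tigar. Fgf3, a ligand of inner ear development, gained 45.0 percentage points in intron 1 of 2. Fgf15, the gut hormone that restrains bile acid synthesis, gained 51.0 percentage points 3979 bp upstream. The Fgf3 and Fgf15 cytosines were 52724 bp apart on chromosome 7.

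The FGF receptors had 5 gains and 1 loss. Fgfr4, the liver receptor of Fgf15, had 2 gains 13 bp apart on opposite strands, 19602 and 19615 bp from its start, at 53.9 and 54.6 percentage points, by the authors' deposited table. These opposite-strand values differed by 0.694 percentage points. Fgfr2, a receptor of limb and skin development, had 2 intergenic cytosines 137330 and 137314 bp downstream of its start at 35.1 and 52.3 percentage points, and 1 in intron 2 of 17 at 32.8 percentage points. Fgfr3, a receptor that restrains bone growth, had 1 loss of -35.9 percentage points in an intergenic CpG island 26455 bp upstream. The remaining receptor, Fgfr1, was not listed.

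Distances were given a sign that follows the gene, since the sign in the files followed the strand of the cytosine: of 2546 cytosines inside the gene of their nearest start, 1295 were positive as filed and all 2546 after correction for strand. By this measure all 5 losses lay upstream of the start (exact interval 47.8 to 100%), beside 39.7% of all 486 losses. The 5 were seen before this was counted, and they spread from 89 to 338980 bp. Of the 55 gains, 14 lay upstream and 41 downstream, a share upstream of 25.5% (14.7 to 39.0%), beside 36.9% of the gains at all other genes. This difference was within the interval. The median distance of the 55 gains from the start was 5328 bp, and that of other genes' gains was 6877 bp.

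**Figure D3:**
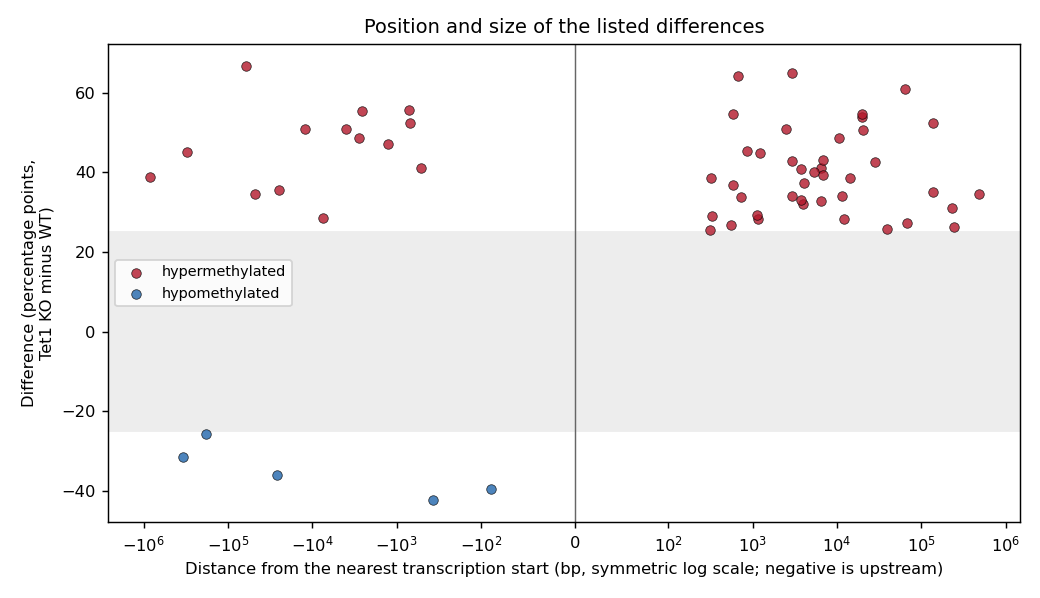
Distance of each of the 60 cytosines from the nearest transcription start (bp, symmetric log scale, negative upstream) against its methylation difference (percentage points, Tet1 KO minus WT). The 5 hypomethylated cytosines lie left of the start, and the 55 hypermethylated ones lie on both sides, 41 of them downstream.

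By annotation, introns held 24 of the 55 gains (43.6%, exact interval 30.3 to 57.7%), beside 31.2% of the gains at all other genes. Promoters held 3 (5.45%, 1.14 to 15.1%), beside 11.3%. The promoter share was 2.56% with regions in place of sites, where the 2 Ephb3 cytosines count once and the Slit1 cytosine joins others in an exon region, and 10.7% at 40 percentage points or more. Exons, counting untranslated ones, held 18.2% and intergenic sequence 27.3%, beside 19.6% and 36.2% at other genes. Gene ends held 3 of 55 (5.45%, 1.14 to 15.1%), beside 1.79%. The value of the other genes was inside the interval of these genes in all 5 features. These intervals count each cytosine as independent, although the 55 gains formed 39 regions, so they may be too narrow. Within 5000 bp of a start lay 27 of the 55 gains (49.1%, 35.4 to 62.9%), beside 45.9%. Repeats held 5 of the 60 cytosines (8.33%, 2.76 to 18.4%), beside 8.09% of the cytosines of other genes.

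**Figure D4:**
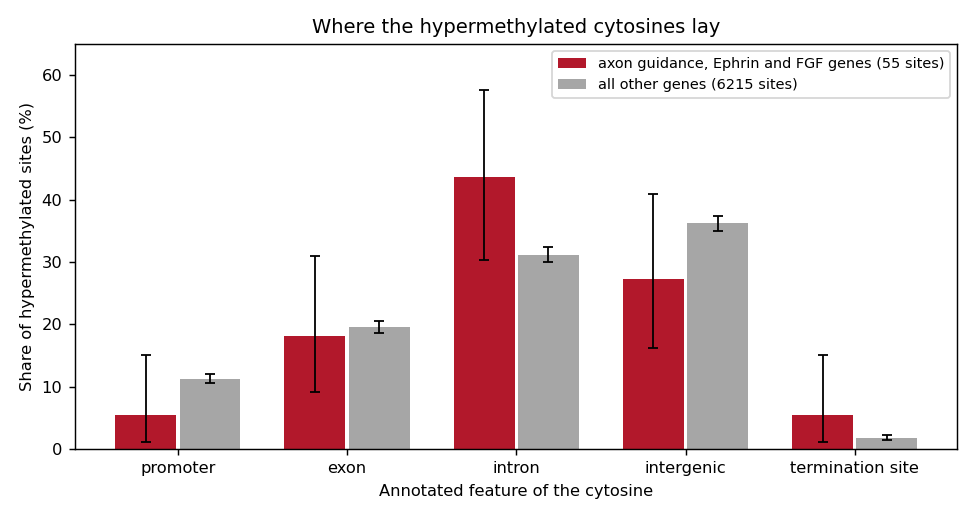
Share of hypermethylated cytosines (%) in each annotated feature, for the 55 cytosines of axon guidance, Ephrin and FGF genes and for the 6215 of all other genes. Error bars are exact Clopper-Pearson 95% intervals for counting error only, with each cytosine counted as independent. In each feature the bar of the other genes ends inside the interval of the 55 cytosines.

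A size of at least 60 percentage points was reached by 4 of the 60 cytosines (6.67%, exact interval 1.85 to 16.2%), those of Unc5a, Efnb3, Fgf14 and Slit1, beside 11.6% of all listed cytosines. Most genes rested on 1 cytosine: 19 of 33 had 1, 8 had 2 and 6 had at least 3. At least 2 cytosines were held by 42.4% of these genes and 41.8% of all listed genes, and at least 3 by 18.2% and 22.8%. The mean was 1.82 cytosines per gene, beside 2.02 over all listed genes. Consecutive cytosines of a gene that lay within 100 bp of each other formed 10 pairs, whose values differed by a median of 5.81 percentage points (range 0.694 to 22.0). Over all 2025 such consecutive pairs in the authors' deposited tables the median was 7.77 percentage points. Neighbouring cytosines may share reads, so they are not independent measurements, and 9 of the 10 pairs were on 1 strand.

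Of 50 partners of these pathways outside the named families, 12 (24.0%) were nearest to a listed cytosine, beside 13.7% of all coding genes. That share carries no interval and was not tested, and the lengths of the partner genes were not compared. Of these 12 genes, 11 had hypermethylated cytosines alone, close to the 87.0% of all listed genes. Their 20 gains had a median of 40.5 percentage points. Netrin, Slit and repulsive guidance partners were listed in 4 of 11 cases. Dcc, the attractive netrin receptor, had 1 intronic gain of 47.3 percentage points 3184 bp from its start, and Ntng2, a membrane-anchored netrin relative, had 4 gains of 35.7 to 46.7 percentage points at its end in the authors' deposited table. Rgma and Rgmb, ligands of neogenin, had 2 gains and 1 gain. Semaphorin and plexin partners were listed in 2 of 12 cases. Dpysl4, a relative of the collapsin response mediator, had 3 gains of 39.3 to 69.1 percentage points. The highest lay 59397 bp upstream of its start, in an exon of another transcript whose gene is not given here. Cntn2, an axonal adhesion protein, had 3 gains of 31.1 to 55.4 percentage points. In Cntn2, 2 gains were annotated to the promoter, 91 and 97 bp from the start. Ephrin partners were listed in 2 of 7 cases, with Ngef, an exchange factor that acts below Epha4, at 25.6 percentage points and Tiam1, an exchange factor of Rac, at 27.8 percentage points. FGF partners were listed in 4 of 20 cases. The FGF feedback inhibitors Dusp6 and Spry2 had gains of 37.8 and 28.1 percentage points, and Spry4, of the same Sprouty family, had a loss of -32.7 percentage points, by the authors' deposited table. These 3 cytosines lay in intergenic sequence at least 24031 bp from the start. Flrt2, which binds FGF receptors and Unc5 proteins, had 2 gains, of 28.8 percentage points in its promoter and 33.6 percentage points 814519 bp away.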

How the data were processed

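The authors' deposited tables list single cytosines with a methylation difference in percentage points, Tet1 KO minus WT, and the distance in bp to the nearest transcription start, annotated on mm9 per the file headers. The submitters' processing notes name Bismark and mm9 alone. For the caller, its coverage minimum, its significance threshold and the handling of replicates, no statement is given in the sources used here. Columns of per-sample values numbered 0, so depth, replicate error and the planned test per site could not be had.

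Genes were selected by name, and all had an Entrez identifier in the RefSeq table of GRCm38.p6 (100%), used for names, family sizes and lengths. Genes named are those with at least 3 cytosines, a promoter cytosine, a loss or a size of at least 60 percentage points, and the others are given for completeness. The members and lists were chosen with earlier results of these data known. A region is a run of cytosines of 1 gene and direction with gaps under 1000 bp. The intervals given beside shares are exact Clopper-Pearson 95% intervals (scipy 1.17.1, pandas 2.3.3, Python 3.11.15). They cover counting error only and count each cytosine or gene as independent. Joining and intervals were tested on simulated data. Alternatives were 40 percentage points, autosomes, the forward strand, sites within 100000 bp, other joining distances, regions in place of sites, a literal reading of the rule for Unc5 and, added after the data were seen, Slit1 left out.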

Additional observations from a re-analysis of the deposited data

How the results depend on the processing

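Of 56 values recomputed under alternatives, 47 stayed within 1.5 times the count or within the interval of the share or median. At 40 percentage points, 28 hypermethylated and 1 hypomethylated cytosines and 23 hypermethylated regions were left, with a median gain of 50.7 percentage points, which follows from the higher limit. On the forward strand alone, 34 hypermethylated and 1 hypomethylated cytosines near 21 genes were left, and the promoter share of gains was 0%, since the 3 promoter gains lie on the reverse strand. Within 100000 bp of a start, 3 losses were left. A literal reading of the rule, without Unc5a to Unc5d, gave 51 gains near 29 genes. No paired analysis was possible because the tables hold no values per sample, and leaving out replicates could not be run for the same reason. Depth is unknown, so no detection limit can be given.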
